A study of Mus musculus with 6 samples.

Results

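The insulin-like growth factor (IGF) system was followed through 8 transcripts of lung endothelial cells: the ligand Igf1, the receptors Igf1r and Insr, and the binding proteins Igfbp2, Igfbp3, Igfbp4, Igfbp5 and Igfbp6. The members were chosen by gene symbol from a table of 23793 rows, and each of the 8 had a single row of its own. All 8 were among the 11693 rows tested, which had to average 1 FPKM or more over the libraries. FPKM, the unit of the table, is the fragment count scaled to transcript length and to the size of the library, so levels of different genes can be set side by side. The libraries came from endothelial cells sorted from mouse lungs at postnatal day 7, on a mixed strain background, with 3 mutant and 3 control libraries lettered A, B and C in each group. The sample titles join the names Vegfa and Shh for both groups, and the series title places Vegfa in the epithelium. The labels name neither the alleles that either group carried nor the driver of any deletion, and they do not say whether animals were pooled. The question of the design is which endothelial transcripts differ between mutant and control lungs.

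IGF1 is a secreted growth factor that signals through the receptor tyrosine kinase IGF1R, and the insulin receptor is its close relative, which can also pair with it in hybrid receptors. In the extracellular space IGF1 is held by binding proteins, which lengthen its life, carry it to or from the receptor and are cut by proteases such as pappalysins. In the developing lung, Igf1 is known mainly from mesenchymal cells and macrophages, while endothelial cells carry the receptors. IGF2R, a scavenger of the related ligand IGF2, removes ligand without a kinase signal.

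The genes lie on 6 chromosomes of mouse build GRCm38 (the same build as mm10), by RefSeq positions. Igf1 spans chr10:87858265-87937047 on the plus strand, Igf1r chr7:67952257-68233668 on the plus strand and Insr chr8:3150922-3279649 on the minus strand. Igfbp4 spans chr11:99040005-99052655 on the plus strand and Igfbp6 chr15:102144186-102149512 on the plus strand. Igfbp2, at chr1:72824480-72852474 on the plus strand, and Igfbp5, at chr1:72858065-72874865 on the minus strand, run towards each other with 5.59 kb between them. Igfbp3, at chr11:7206086-7215498 on the minus strand, lies beside Igfbp1, 3.54 kb away on chromosome 11. RefSeq lists 1 long non-coding gene that overlaps Igf1 (Igf1os) and 2 that overlap Igf1r (Gm51487 and Gm51488), and the values of Igf1 and Igf1r may hold reads of these genes, since no source used here states whether counting used strand.

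The promoters of the most abundant pair of binding protein transcripts, Igfbp4 and Igfbp5, are shown because these genes held at least 94.2% of the summed FPKM of the 5 binding proteins in every library. Each line gives the 250 bases before the start that the RefSeq promoter entry uses, 5′ to 3′ on the gene's own strand, from chr11:99040994-99041243 (plus) for Igfbp4 and chr1:72874866-72875115 (minus) for Igfbp5. For Igfbp5 that start is the edge of the gene span given above, and for Igfbp4 it is base 99041244, which lies 1239 bases inside the span. Capitals mark any match, on either strand, to the TATA box (letters TATAAA), the GC box (letters GGGCGG) or the forkhead motif (letters TGTTTAC).
Igfbp4: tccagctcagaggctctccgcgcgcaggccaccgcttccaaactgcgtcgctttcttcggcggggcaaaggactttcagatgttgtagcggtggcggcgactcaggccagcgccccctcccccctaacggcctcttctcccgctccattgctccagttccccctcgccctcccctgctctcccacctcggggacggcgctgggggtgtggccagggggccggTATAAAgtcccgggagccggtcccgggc
Igfbp5: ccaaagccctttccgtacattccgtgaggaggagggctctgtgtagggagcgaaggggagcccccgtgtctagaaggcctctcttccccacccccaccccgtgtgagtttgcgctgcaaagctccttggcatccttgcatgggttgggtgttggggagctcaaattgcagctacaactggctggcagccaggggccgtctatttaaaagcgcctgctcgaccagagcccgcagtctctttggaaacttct
The single TATA box match of Igfbp4 begins 28 bases before base 99041244. Igfbp5 holds no exact match to the letters of the 3 motifs in this window, and variants of the letters were not searched. RefSeq promoter entries were found for 7 of the 8 members, all but Insr. Those of Igf1 and Igfbp3 also start inside the gene span, as does entry 2 of Igfbp2, by 907 bases. Among all 32851 promoter windows of this length, 12.4% hold the TATA box, 32.7% the GC box and 3.17% the forkhead motif. The GC box was found in the windows of Igf1r and of entry 1 of Igfbp2, and the forkhead motif in none of the members' windows. A match to the TATA box letters was also found for Igfbp6, on the opposite strand and 148 bases before the start.

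The total number of fragments is unknown, and the spacing of the lowest values put the depth of the libraries between 0.897 and 1.49 times that of control A. Of the 12 pan-endothelial markers examined, all were above 50 FPKM in every library, with a summed level of 5629 to 6163 FPKM in mutant and 6793 to 7678 FPKM in control libraries. Without Cldn5 the sums overlapped, at 4379 to 5344 FPKM in mutant and 4694 to 5248 FPKM in control libraries, and over the 12 markers 6 had a lower and 6 a higher mean in the mutant. Vegfa stood at 81.6 ± 17.1 FPKM in mutant and 80.9 ± 7.86 FPKM in control libraries (SD, n = 3 each), a limma adjusted p of 0.996. The series title speaks of Vegfa of the epithelium, not of the cells sorted, so its level here is no test of the group labels. With limma on log2(FPKM + 1) and Benjamini-Hochberg adjustment over all tested rows, 0.137% of the rows passed an adjusted p of 0.05 in either direction (16 lower and 0 higher in the mutant).

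None of the 8 members passed that test. In limma, 0 passed at an unadjusted p of 0.05 as well, where 8.1% of all tested rows did. On the log2(FPKM + 1) scale, on which all lower and higher means are counted here, the mean was lower in the mutant for 5 members (Igf1, Insr, Igfbp2, Igfbp5 and Igfbp6) and higher for 3 (Igf1r, Igfbp3 and Igfbp4), with a median log2 fold change of -0.16 against 0.02 over all tested rows. Of all tested rows, 45.4% had a lower mean in the mutant. The median SE of the members' log2 fold change was 0.43, against 0.15 over all tested rows. The groups did not overlap for 2 members, Igf1r (mutant above) and Insr (mutant below), where 7.12% and 6.57% of all tested rows lay above and below in this way and 13.7% in either. With the library letter as a block in limma, 0 members passed the adjusted threshold, where 0.0513% of all rows did, and 4 (Igfbp3, Igfbp4, Igfbp5 and Igfbp6) had an unadjusted p under 0.05, where 12.3% of all rows did.

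**Figure D1:**
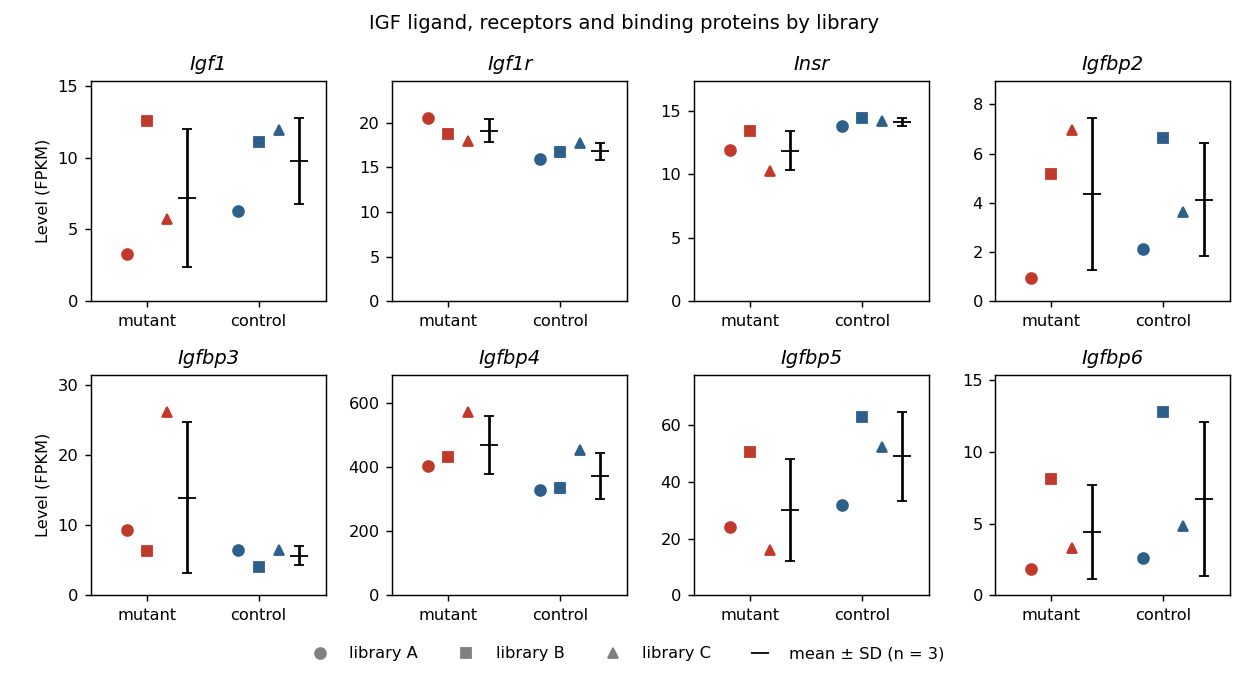
Level in FPKM of each of the 8 transcripts in the 3 mutant libraries (red, left) and the 3 control libraries (blue, right), each panel on its own axis from 0. Circles, squares and triangles are libraries A, B and C, and the bar is the mean ± SD of 3 libraries. Only for Igf1r and Insr do the groups not overlap.

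The receptors were the steadiest members. Igf1r, the kinase receptor of IGF1, was at 20.6 FPKM in mutant A, 18.8 in mutant B and 18.02 in mutant C, against 15.9 FPKM in control A, 16.8 in control B and 17.8 in control C. Every mutant library was above every control library, although mutant C lay only 1.01 times above control C. The log2 fold change was 0.17 ± 0.10 (SE), with a 95% interval of -0.05 to 0.40 and an adjusted p of 0.703 in limma.

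Insr, the insulin receptor, went the other way in its means. It was at 11.9 FPKM in mutant A, 13.4 in mutant B and 10.3 in mutant C, against 13.8 FPKM in control A, 14.4 in control B and 14.2 in control C. All mutant libraries were below all controls, which lay within 1.04 times of each other. The log2 fold change was -0.24 ± 0.11 (interval -0.51 to 0.03, limma adjusted p = 0.655), and -0.15 without mutant C. An exact two-sided permutation test of 3 against 3 libraries gave p = 0.1 for each receptor, the smallest it can give.

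Within a library, Igf1r was above Insr throughout. The ratio of their FPKM was 1.72, 1.40 and 1.75 in mutants A, B and C, against 1.15, 1.16 and 1.25 in controls A, B and C. The ratio was thus higher in each mutant library than in every control library, as follows from the 2 receptors' own values. The 10 markers of the capillary cells with high Car4, among them Igfbp7, were compared by their mean log2(FPKM + 1). This mean was 4.63 to 5.35 in mutant and 6.83 to 6.95 in control libraries. Their summed FPKM overlapped, at 749 to 1769 in mutant and 1743 to 1817 in control libraries, with Igfbp7 at 1393 FPKM in mutant C. Of these markers 9 had a lower mean in the mutant and 1 (Igfbp7) a higher. Lower means made up 45.4% of all tested rows. Of the 10 markers, 2 passed the adjusted threshold in limma, where 0.137% of all tested rows did. At an unadjusted p under 0.05 in limma there were 8, where 8.1% of all tested rows passed. Over the 6 libraries Insr ran with the list mean (Pearson's r = 0.861). Insr also ran with that of erythroid and platelet (0.897) and of alveolar type 1 markers (0.834). These r pool both groups, and Insr and the mean of the Car4 list were each lower in every mutant than in every control library. Among the controls, control A had the highest mean of the Car4 list and the lowest Insr. The part of any of these cells in the level of Insr was not tested. In bulk libraries fewer cells of a type and less RNA per cell cannot be told apart.

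Igf1 was a transcript of middling level whose libraries did not sort by group. It was at 3.29 FPKM in mutant A, 12.5 in mutant B and 5.70 in mutant C, against 6.31 FPKM in control A, 11.1 in control B and 11.9 in control C. The highest and the lowest value were both from mutant libraries, and the groups overlapped. The log2 fold change was -0.52 ± 0.43 (interval -1.53 to 0.50, limma adjusted p = 0.801). The sign was not shared by the letters, since the difference within a letter was -0.77 for A, 0.17 for B and -0.94 for C. Leaving out mutant A gave -0.13 and leaving out mutant B gave -0.96.

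Igf2, the other ligand of the system, was at 28.0 FPKM in mutant A, 30.7 in mutant B and 19.8 in mutant C, against 17.6 FPKM in control A, 13.4 in control B and 14.5 in control C. Its groups did not overlap, and the log2 fold change was 0.74 ± 0.18 with a limma adjusted p of 0.411. In each library Igf1 stood below Igf2, at 0.118, 0.408 and 0.288 times its level in mutants A, B and C and at 0.359, 0.825 and 0.818 times in controls A, B and C.

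Igfbp4, a binding protein that mostly restrains IGF until it is cut by pappalysin, was by far the most abundant member. It was at 404 FPKM in mutant A, 431 in mutant B and 575 in mutant C, against 330 FPKM in control A, 335 in control B and 455 in control C. Control C was above mutants A and B, so the groups overlapped, but each mutant was above the control of its letter by 1.23, 1.29 and 1.26 times for A, B and C. The log2 fold change was 0.33 ± 0.20 (interval -0.14 to 0.80) and limma gave an adjusted p of 0.721. Over the alternatives the limma adjusted p lay between 0.375, with the letter as a block, and 0.9997. Without mutant C the log2 fold change was 0.18. In the authors' deposited table, whose p-values come from a test within the letters without adjustment, Igfbp4 had a log2 fold change of 0.33 and p = 0.00367. For the other members except Igfbp6, given below, that test gave p from 0.1355 (Insr) to 0.7726 (Igfbp2). The mean level of Igfbp4 was above that of 98.9% of the tested rows.

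Igfbp5, which binds the extracellular matrix as well as IGF, came next. It was at 23.9 FPKM in mutant A, 50.5 in mutant B and 15.9 in mutant C, against 31.8 FPKM in control A, 63.0 in control B and 52.3 in control C. Each mutant library was below the control of its letter, by the most in C, where the ratio was 0.304, against 0.754 in A and 0.802 in B. The log2 fold change was -0.79 ± 0.43 (interval -1.81 to 0.23, limma adjusted p = 0.703), and -0.43 without mutant C.

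Igfbp3, the chief IGF carrier of blood serum, was at 9.29 FPKM in mutant A, 6.26 in mutant B and 26.2 in mutant C, against 6.43 FPKM in control A, 4.07 in control B and 6.40 in control C. Mutant C alone was above 10 FPKM, and mutant B lay within the range of the controls. The log2 fold change was 0.96 ± 0.47 (interval -0.15 to 2.06, limma adjusted p = 0.665), and 0.40 without mutant C. Its neighbour Igfbp1, best known as a binding protein made by the liver, was at or below 0.105 FPKM in every library.

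Igfbp6, which prefers IGF2 over IGF1, had a low and very variable level. It was at 1.80 FPKM in mutant A, 8.12 in mutant B and 3.32 in mutant C, against 2.60 FPKM in control A, 12.8 in control B and 4.82 in control C. The libraries of letter B were the highest in both groups, and the groups overlapped widely, yet each mutant was at 0.633 to 0.693 times the control of its letter. The log2 fold change was -0.46 ± 0.59 (interval -1.86 to 0.93, limma adjusted p = 0.881), or -0.46 ± 0.11 with the letter as a block (limma adjusted p = 0.296, the lowest of its alternatives, which reached 0.9997), and its sign turned without control B (0.067). The authors' deposited table gave Igfbp6 a log2 fold change of -0.58 with p = 0.00514.

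Igfbp2, a binding protein that alveolar type 1 epithelial cells are known to make, was the lowest member in the mean, at 4.35 ± 3.10 FPKM in mutant and 4.13 ± 2.30 FPKM in control libraries (SD, n = 3 each). It was at 0.927 FPKM in mutant A, 5.17 in mutant B and 6.96 in mutant C, against 2.13 FPKM in control A, 6.65 in control B and 3.62 in control C. Both the highest and the lowest library were mutants. The log2 fold change was -0.07 ± 0.57 (interval -1.43 to 1.28, limma adjusted p = 0.979), opposite in sign to the difference of the mean FPKM, and its sign turned without mutant A (0.55) or without control B (0.26). Igfbp2 and its neighbour Igfbp5 did not share a pattern: in mutant C, Igfbp5 was at its lowest and Igfbp2 at its highest. The 9 alveolar type 1 markers summed to 33.7 to 51.8 FPKM in mutant and 90.8 to 107 FPKM in control libraries, and without Hopx to 25.2 to 34.9 FPKM in mutant and 32.9 to 47.4 FPKM in control libraries, which overlap. Of the 7 of these markers tested, 5 had a lower and 2 a higher mean in the mutant, where 45.4% of all tested rows had a lower mean. In limma 0 passed and 3 had an unadjusted p under 0.05, where 8.1% of all tested rows did. Besides Hopx, Gprc5a was at 6.89 to 10.75 FPKM in mutant and 13.7 to 24.8 FPKM in control libraries. Spock2 was at 1.51 to 1.965 FPKM in mutant and 2.72 to 3.998 FPKM in control libraries. Ager was between 9.48 and 13.7 FPKM in mutant and 9.26 and 15.4 FPKM in control libraries, and Aqp5 and Rtkn2 were between 0.307 and 1.46 FPKM over all libraries. The part of those cells in the level of Igfbp2 was not tested.

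**Figure D2:**
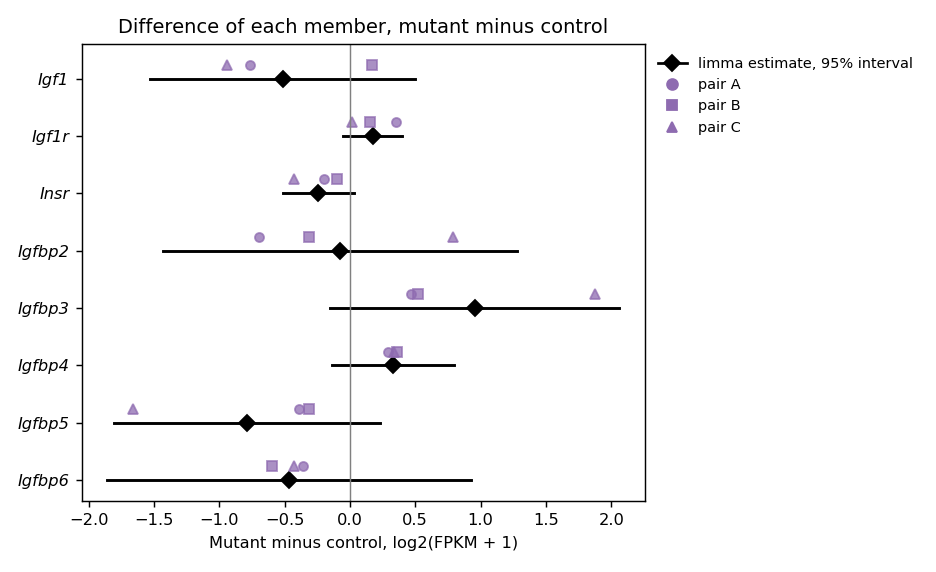
Mutant minus control difference of each member on the log2(FPKM + 1) scale. Diamonds and lines are the limma estimate and its 95% interval from all 6 libraries, and purple points are the differences within letters A, B and C. Every interval includes 0, while all 3 points lie on one side of 0 for Igf1r, Insr, Igfbp3, Igfbp4, Igfbp5 and Igfbp6.

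Within the letters, 3 members (Insr, Igfbp5 and Igfbp6) were lower in the mutant for A, B and C alike and 3 (Igf1r, Igfbp3 and Igfbp4) were higher for all of them. Among all tested rows 17.2% were lower and 19.6% higher in this way.

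The order of levels was clear at the top of the controls and blurred below. In mutant libraries the order of the means was Igfbp4, Igfbp5, Igf1r, Igfbp3, Insr, Igf1, Igfbp6 and Igfbp2, and only Igfbp4 had a range that did not overlap that of the next gene. In control libraries it was Igfbp4, Igfbp5, Igf1r, Insr, Igf1, Igfbp6, Igfbp3 and Igfbp2, and the first 4 each had a range above that of the next gene. The neighbours from Igf1 down overlapped in both groups.

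Among the 5 binding proteins, Igfbp4 made up most of the transcript. Their summed level was 440 FPKM in mutant A, 501 in mutant B and 627 in mutant C and 372 FPKM in control A, 422 in control B and 522 in control C. Igfbp4 held 91.8%, 86.0% and 91.7% of the sum in mutants A, B and C and 88.5%, 79.5% and 87.1% in controls A, B and C. The share of Igfbp5 was 5.44%, 10.1% and 2.53% in the mutants and 8.53%, 14.9% and 10.02% in the controls, lower in the mutant for each letter. The share of Igfbp3 was 2.11%, 1.25% and 4.18% in mutants A, B and C and 1.73%, 0.965% and 1.23% in controls A, B and C. The groups overlapped in the shares of Igfbp4 and Igfbp5 and, by mutant B, in that of Igfbp3. Igfbp7, a low-affinity relative outside this count, was at 425 FPKM in mutant A, 619 in mutant B and 1393 in mutant C, against 584 FPKM in control A, 729 in control B and 670 in control C.

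**Figure D3:**
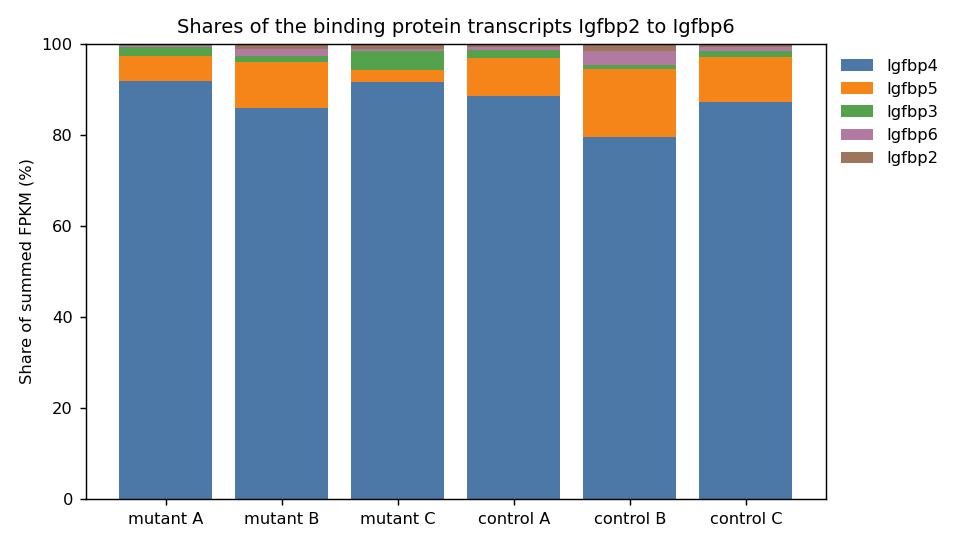
Share in percent of the summed FPKM of Igfbp2 to Igfbp6 that each binding protein held, with 1 bar per library, mutant libraries left and control libraries right. Igfbp4 held 79.5% to 91.8% in every library, and the share of Igfbp5 was 2.53% to 10.1% in mutant and 8.53% to 14.9% in control libraries.

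Several members followed markers of cells other than endothelium from library to library. The 10 pericyte and smooth muscle markers (Pdgfrb, Acta2 and others) summed to 126 FPKM in mutant A, 398 in mutant B and 204.5 in mutant C, against 222 FPKM in control A, 430 in control B and 498 in control C. The libraries in which this sum was highest, mutant B and controls B and C, were also the 3 highest for Igf1 and for Igfbp6. Mutant A was the lowest for the sum, for Igf1, for Igfbp2 and for Igfbp6. Igfbp2, however, was highest in mutant C, at 6.96 FPKM, where the sum was 204.5 FPKM. All 10 pericyte and smooth muscle markers had a lower mean in the mutant, where 45.4% of all tested rows did. Of the 10, 0 passed in limma and 3 had an unadjusted p under 0.05, where 8.1% of all tested rows did. None of the 10 was at 0 in any library. The 11 fibroblast markers summed to 413 FPKM in mutant A, 2061 in mutant B and 907 in mutant C, against 411.5 FPKM in control A, 1702 in control B and 1368 in control C. The 3 highest libraries of this fibroblast sum were thus the same as those of the pericyte and smooth muscle sum. The 6 mesothelial markers summed to 15.9 to 50.5 FPKM in mutant and 21.7 to 58.6 FPKM in control libraries. Both the fibroblast and the mesothelial sum were highest in the libraries of letter B. The 3 lowest libraries for Igfbp5 were mutants A and C and control A, the same 3 as for the pericyte and smooth muscle sum and for the fibroblast sum. The part of these cells in the levels of Igf1, Igfbp2, Igfbp5 and Igfbp6 was not tested.

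Macrophages are a known source of Igf1. The 11 macrophage and other leukocyte markers with a row summed to 45.9 FPKM in mutant A, 12.8 in mutant B and 11.1 in mutant C, against 27.9 FPKM in control A, 46.1 in control B and 11.6 in control C. Lyz2, a lysozyme of macrophages and neutrophils, made up the largest share of most of these sums, at 23.7 FPKM in mutant A, 6.79 in mutant B and 2.995 in mutant C, against 12.8 FPKM in control A, 28.3 in control B and 7.65 in control C. The macrophage receptor Mrc1 was between 2.07 and 6.75 FPKM in mutant and 1.90 and 4.81 FPKM in control libraries, and Cd68 between 0.963 and 3.86 FPKM in mutant and 0.802 and 2.845 FPKM in control libraries. Ptprc, the common leukocyte antigen, was between 0.0589 and 1.18 FPKM and the macrophage receptor Csf1r between 0.132 and 1.46 FPKM. S100a8, a neutrophil gene, reached 6.98 FPKM in mutant A and 4.04 FPKM in control B and was at 0 in mutant C and control C, and the T cell gene Cd3e was at 0 in controls B and C. Igf1 was lowest in mutant A, with a leukocyte sum of 45.9 FPKM, and highest in mutant B, with a sum of 12.8 FPKM. The part of leukocytes in the level of Igf1 was not tested. Igfbp3 and Igfbp4 were both highest in mutant C, which was low in pericyte, mesothelial and leukocyte markers.

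**Figure D4:**
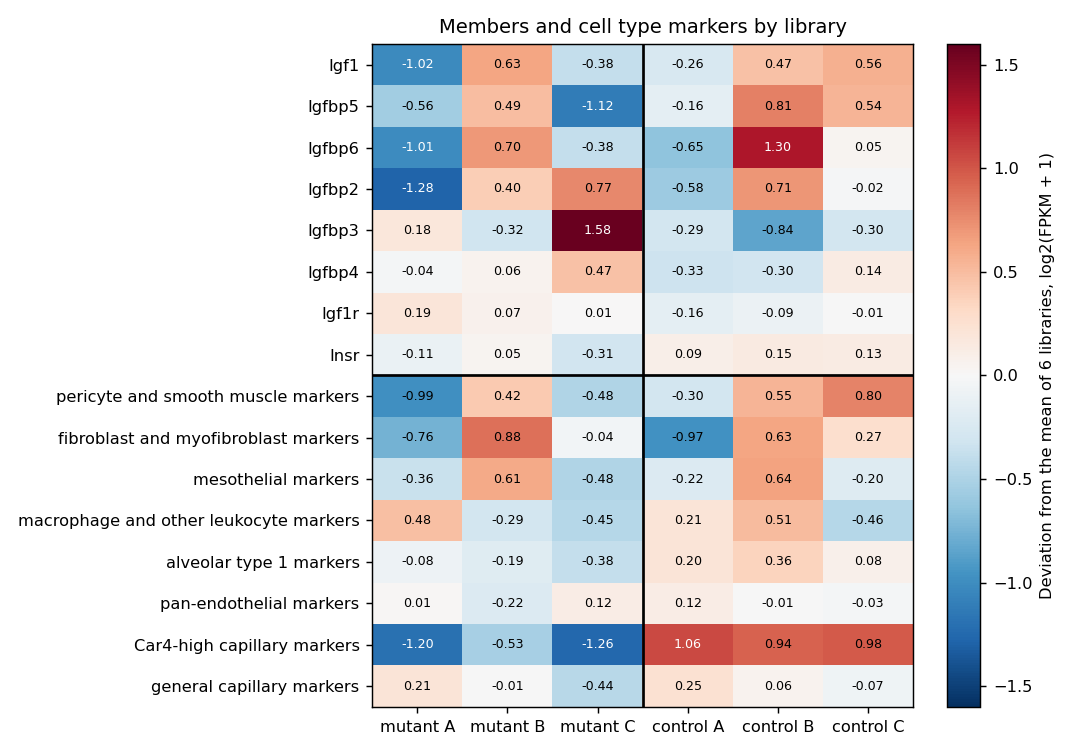
Deviation of each member (upper block) and of the mean level of each marker list (lower block) from its mean over the 6 libraries, in log2(FPKM + 1), with mutant libraries left of the line and control libraries right. Igf1, Igfbp6 and Igfbp2 are lowest in mutant A, as are the pericyte and smooth muscle markers (-0.99), while Igfbp3 stands out in mutant C (1.58).

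The transcripts whose levels ran most closely with each member over the 6 libraries, out of 8347 with a mean of at least 5 FPKM, are given as a description by Pearson's r of log2(FPKM + 1). Over so few libraries close matches are common, and between 7 and 119 transcripts exceeded 0.95 for a member. Igf1 ran with Dhx32 (0.997), Mov10 (0.995) and the small heat shock protein gene Cryab (0.994), and Igf1r with Tmem192 (0.996), the HLH inhibitor Id2 (0.973) and Gid8 (0.969). Insr ran with the kinase Pak4 (0.998), Ttyh2 (0.988) and Ankrd33b (0.985). Igfbp2 ran with Heatr6 (0.994), Psmg3 (0.989) and Map3k10 (0.986), and Igfbp3 with the ribosomal protein gene Rpl28 (0.997) and with Mettl2 (0.994). Igfbp4 ran with Arhgap21 (0.993), Dtnbp1 (0.988) and Rgs19 (0.987), Igfbp5 with Arhgef12 (0.997), Acp2 (0.996) and the creatine kinase gene Ckb (0.988), and Igfbp6 with the BMP target Id1 (0.994), Nupr1 (0.991) and Zscan29 (0.987). These r share the same libraries, which differed in depth and in the levels of cell type markers. The part of either in the r was not tested.

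Beyond the 8 members, 85 genes of the pathway from 6 lists had a row and 71 were tested. Of these, 0 passed in limma in either direction, with or without the letter as a block. At an unadjusted p of 0.05 there were 5, or 7.04%, against 8.1% of all tested rows, and 9, or 12.7%, with the letter as a block, against 12.3% of all rows. The mean was lower in the mutant for 40 and higher for 31, with a median log2 fold change of -0.01. Of all tested rows, 45.4% had a lower mean, the share to set beside the counts in the lists below.

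The adaptors and feedback genes held the pathway gene nearest to the threshold. Grb14, an adaptor that binds the insulin receptor and inhibits its kinase, was at 4.29 FPKM in mutant A, 3.23 in mutant B and 2.53 in mutant C, against 9.87 FPKM in control A, 15.7 in control B and 17.0 in control C. All mutant libraries were below all controls. The log2 fold change was -1.79 ± 0.23, with an adjusted p of 0.0897 in limma, 0.153 with the letter as a block and 0.0689 to 0.757 over all alternatives. Enpp1, a membrane enzyme that can dampen insulin receptor signalling, had a log2 fold change of -1.18 ± 0.50 (limma adjusted p = 0.62), and Sh2b3, an adaptor that restrains receptor signalling, one of -0.22 (limma adjusted p = 0.727). Of 16 tested genes in this list 10 had a lower mean in the mutant, with a median of -0.09. The docking proteins Irs1 and Irs2 carry the signal from both receptors. Irs1 was at 1.26 FPKM in mutant A, 3.01 in mutant B and 1.29 in mutant C, against 1.46 FPKM in control A, 4.38 in control B and 4.001 in control C. Irs2 was at 0.907 FPKM in mutant A, 7.46 in mutant B and 3.49 in mutant C, against 1.01 FPKM in control A, 5.08 in control B and 5.94 in control C. The groups overlapped for both.

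Of 25 tested genes of PI3K, AKT and mTOR signalling, 13 had a lower and 12 a higher mean in the mutant, with a median of 0.00 on the log2 scale. Pik3cb, a catalytic subunit of PI3 kinase, was at 12.5 FPKM in mutant A, 9.65 in mutant B and 8.46 in mutant C, against 17.4 FPKM in control A, 16.3 in control B and 15.6 in control C, without overlap. Its log2 fold change was -0.65 ± 0.15 (limma adjusted p = 0.337). The kinase Pdpk1 had a log2 fold change of -0.23 (limma adjusted p = 0.625) and the transcription factor Foxo1, which insulin and IGF signalling keep out of the nucleus, one of 0.24 (limma adjusted p = 0.787). Among 17 tested targets of FOXO factors, 11 had a lower and 6 a higher mean, with a median of -0.01. Trib1 was at 10.7 FPKM in mutant A, 12.8 in mutant B and 19.8 in mutant C, against 7.11 FPKM in control A, 10.1 in control B and 10.3 in control C (log2 fold change 0.57 ± 0.24, limma adjusted p = 0.617). Cited2 and Sesn1, the next in that list by p, had log2 fold changes of 0.38 and 0.17 (limma adjusted p of 0.801 and 0.845), and that of Sesn1 turned to -0.056 without pair A.

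Of the proteases that cut binding proteins and their inhibitors, 9 of 12 were tested, with 6 lower and 3 higher means in the mutant and a median of -0.26. Pappa, the pappalysin that cuts Igfbp4, was at or below 0.237 FPKM in every library, whereas its relative Pappa2, which cuts Igfbp5, was at 1.93 FPKM in mutant A, 9.29 in mutant B and 2.92 in mutant C, against 1.84 FPKM in control A, 6.44 in control B and 8.54 in control C. The groups overlapped for Pappa2. The metalloproteinase inhibitor Timp1 had a log2 fold change of 0.50 ± 0.13 (limma adjusted p = 0.43), the lysosomal protease Ctsd one of -0.31 (limma adjusted p = 0.64) and Stc1, a stanniocalcin, one of -0.55 (limma adjusted p = 0.715).

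Of 10 other ligands, receptors and carriers, 5 were tested. The scavenger receptor Igf2r was at 34.1 FPKM in mutant A, 46.0 in mutant B and 43.2 in mutant C, against 36.8 FPKM in control A, 40.1 in control B and 45.4 in control C, a log2 fold change of 0.00 ± 0.14 (limma adjusted p = 0.994). Lrp1 and Sort1, receptors that bind carriers or ligands of many kinds, had log2 fold changes of -0.55 and -0.07 (limma adjusted p of 0.885 and 0.951), and the sign of each turned without mutant A. Insrr, Igfals and Igfbpl1 were at or below 0.0436 FPKM in every library. Of the 3 proteins that bind Igf2 mRNA, only Igf2bp3 was high enough to be tested, at 6.27 FPKM in mutant A, 5.56 in mutant B and 6.35 in mutant C, against 5.38 FPKM in control A, 3.01 in control B and 4.62 in control C (log2 fold change 0.43 ± 0.19, limma adjusted p = 0.631).

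**Figure D5:**
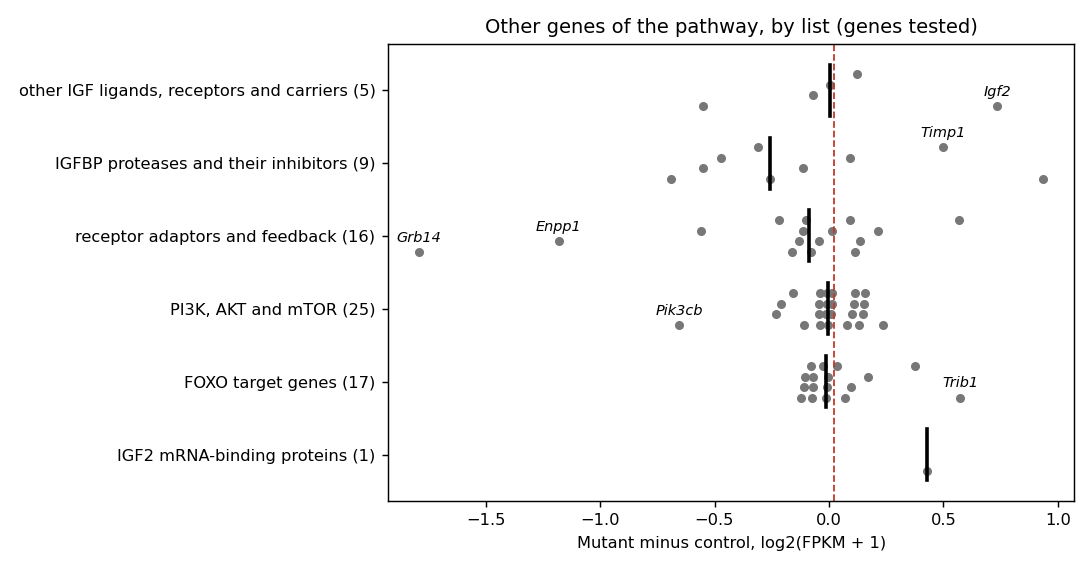
Mutant minus control difference on the log2(FPKM + 1) scale for each tested gene of the 6 pathway lists, 1 point per gene, with the number tested in brackets; vertical position within a list carries no value. Black bars are the medians of the lists and the dashed line is the median of all tested rows (0.02). Grb14 (-1.79) lies farthest from 0, and none of the genes passed the adjusted threshold.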

How the data were processed

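RNA was measured in 6 libraries of sorted lung endothelial cells, 3 mutant and 3 control. Per the labels' protocols, libraries were made from 100 to 200 ng of total RNA with an mRNA isolation kit, and pairs of 76-nt reads were mapped to mm10. The submitters' processing notes name Cuffdiff, Cufflinks 2.2.1, TopHat2 2.0.14 and Bowtie2 2.2.3. The authors deposited 1 table with an FPKM value for each library. Its other columns are the authors' log2 fold change and the authors' p-value. Recomputed from the deposited FPKM, these were the mean log2 ratio within the letters A, B and C and an unadjusted test over those ratios (largest difference in p 8.11e-13). Since FPKM gives no counts, count models could not be applied, and depth is known only relative to control A.

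Levels were compared on log2(FPKM + 1) with limma 3.58.1 in R 4.3.3 (empirical Bayes with trend, two-sided, Benjamini-Hochberg over all rows averaging 1 FPKM or more, threshold 0.05), and the fit was tested on simulated data. This scale understates changes of low genes. Errors are SD for levels and SE for fold changes. The labels tie no library to a single animal, and p-values cover only the library-to-library spread, which may be technical. The members, gene lists and tests were chosen with earlier results of these data known.

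Libraries that share a letter deviated together over all tested rows, with correlations of 0.361 (A), 0.268 (B) and 0.191 (C), each above 0.1. The pairing was taken from these and the letters in the titles, and the main fit has no block. By rule, the text names all members, the 3 genes of lowest p in each pathway list and the 3 transcripts most like each member, of which 1 is not reported here. Irs1, Irs2, Pappa, Pappa2, Igfbp1, Insrr, Igfals and Igfbpl1 were added after their values were seen. So were the markers Cldn5, Hopx, Ager, Gprc5a, Spock2, Lyz2, Mrc1, Cd68 and S100a8. Igf2r and Vegfa are also given outside this rule. Of 13 marker lists, 7 are described beside the members and 6 with the alternatives. The alternatives changed the pseudocount, the low-value filter, the scaling or the variance model, added the block or a batch term, or left out each library. Leaving out pair A or pair C was added after seeing the data. Pair A carries another label prefix than pairs B and C, and alone it allows no test. Positions and promoters come from RefSeq on GRCm38.p6.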

Additional observations from a re-analysis of the deposited data

How the results depend on the processing

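None of the 8 members and none of the pathway genes passed in limma under any of the 18 alternatives in which they were tested. The filter at 5 FPKM left out 1 member (Igfbp2) and 7 of the 71 pathway genes. The sign of the difference held for Igf1, Igf1r, Insr, Igfbp3, Igfbp4 and Igfbp5 in all 18. Without pair A, Igfbp2 was at 0.24 on the log2 scale. Leaving out 1 library gave log2 fold changes between -0.96 and -0.13 for Igf1, 0.12 and 0.21 for Igf1r, -0.33 and -0.15 for Insr, -0.48 and 0.55 for Igfbp2, 0.40 and 1.36 for Igfbp3, 0.18 and 0.48 for Igfbp4, -1.23 and -0.43 for Igfbp5, and -0.93 and 0.067 for Igfbp6, positive only without control B. Leaving out 1 library put Sort1 between -0.27 and 0.039, positive without control B, control C or mutant A, and Lrp1 between -1.22 and 0.017, positive without mutant A. Sort1 was at 0.077 without pair C, and Sesn1 at -0.056 without pair A. The cause was not tested. Of all rows, 16 passed with all libraries, 10 with a filter at 5 FPKM, 6 with the replicate block (which changed no call among members or pathway genes), 6 to 10 when 1 library was left out, 6 without pair A and 3 without pair C. For the marker lists whose levels are not given above, median log2 fold changes follow. They were -0.08 for general capillary, -0.02 for arterial, -0.06 for venous and 0.17 for lymphatic markers. For alveolar type 2 and airway markers the median was -0.55, and for erythroid and platelet markers -1.16. How depth limits single members was not tested.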
